A study of Homo sapiens with 4 samples.

Results

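The keratin gene family was examined in 4 libraries of poly(A) RNA from NCI-H1048, an established human cell line from a small cell lung cancer. Members were all gene symbols made of KRT, a number and at most 1 further letter, which gave 65 of the 35979 symbols in the tables. Of these, 55 are protein-coding genes in GENCODE release 29 (29 type I and 26 type II keratins), and 10 are annotated pseudogenes whose symbols end in P. The rule used only the names, so no expression value decided which symbols are members. The family itself was chosen with earlier results of these data known. A further 136 symbols with a number after the P, such as copies of KRT8 and KRT18, are not members.

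NCI-H1048 belongs to the tuft cell-like subtype of small cell lung cancer, which depends on the transcription factor POU2F3. Guide RNAs (gRNA) targeted COLCA2, the gene of a co-activator of POU2F3, in 2 libraries labelled COLCA2 knockout, each with its own guide. A single library labelled POU2F3 knockout had a gRNA against POU2F3, and a single library labelled WT had a non-targeting gRNA. The labels give no treatment besides the gRNA and do not say whether each library came from a clone or a pool of edited cells. The sequencing assigned between 21587741 and 29632382 reads to genes per library.

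Keratins are the intermediate filament proteins of epithelial cells. A filament is built from pairs of an acidic type I and a neutral to basic type II chain, so an epithelium is usually described by which pair it makes. KRT8 with KRT18 is the pair of simple epithelia such as intestinal and airway lining, and KRT18 has long served as a stain for tuft cells. KRT5 with KRT14 or KRT15 marks the basal layer of stratified epithelia. KRT6, KRT16 and KRT17 appear on wounding and in hyperproliferation, while KRT13, KRT1, KRT10 and KRT9 belong to upper layers of mucosa or skin.

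The labelled cell identity was checked against its markers. POU2F3 stood at 14602 (normalized count) and AVIL, an actin-binding tuft cell gene, at 5093 where the guide was non-targeting. The summed count of the 6 tuft markers was 38773 in that library and between 9490 and 13633 in the others, with TRPM5 at 1 or 2 reads in each library. Of the neuroendocrine markers, CHGA had at most 3 reads and NEUROD1 at most 11 reads per library. INSM1 and SYP passed the expression minimum and were highest in the non-targeting library, INSM1 with 118 against 23.8 to 35.3 and SYP with 74.5 against 48.2 to 60.1. Of 3 leukocyte markers CD3E was at 0 and PTPRC at 8 to 17 reads, while CD68 and all 4 fibroblast markers passed the expression minimum. The summed leukocyte markers ran from 88.8 in the non-targeting library to 218 in the others, and the summed fibroblast markers from 1242 to 1818, both lowest without a targeting guide. The part of these markers in the keratin results was not tested.

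Values below are normalized counts, which compare 1 gene between libraries. Of the 65 members, 12 had no read in any library (5 coding genes and 7 pseudogenes). The expression minimum, a 4-library mean of 20 or more, was reached by 25 members, 23 of them coding, and 28 members had reads but stayed under that minimum. Because each gene's own mean decides whether it enters, members that are high only with a targeting guide enter through those libraries. KRT14, KRT34, KRT75 and KRT86 did so, with normalized counts of 0 to 16.2 in the non-targeting library. With 1 library in the POU2F3 and non-targeting groups, no spread within those groups is known. The SD over the COLCA2 guides holds guide, culture and library differences together, and intervals cover counting error only.

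Keratin transcripts took 0.123% of all reads in the non-targeting library (95% exact Clopper-Pearson interval 0.122% to 0.124%). The COLCA2 guides gave shares of 0.353% and 0.387%, and the POU2F3 guide gave 0.250%. All 3 libraries with a targeting guide lay above the non-targeting one, and the POU2F3 gRNA library lay below both COLCA2 gRNA libraries. In bulk RNA a change in how many cells express a keratin and a change in RNA per cell cannot be told apart.

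**Figure D1:**
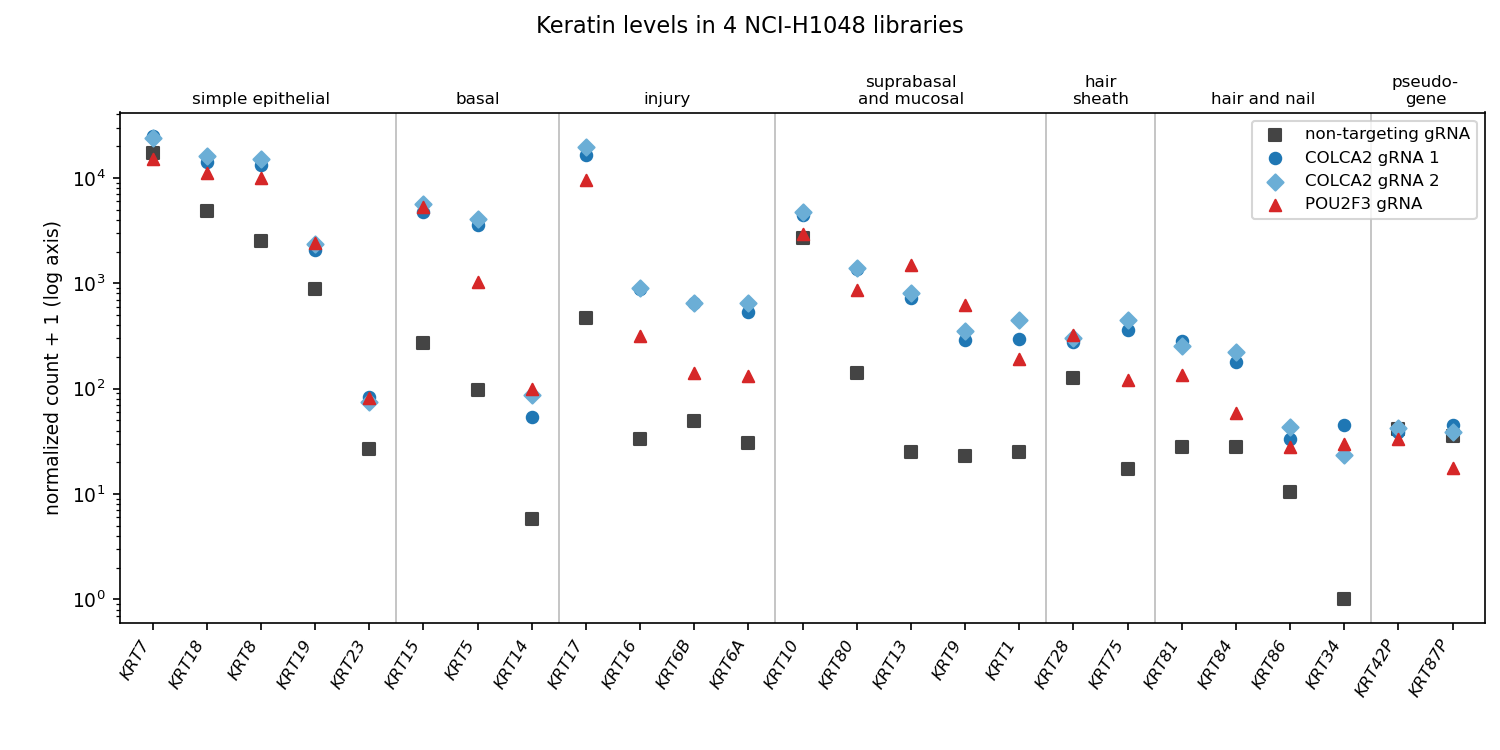
Normalized count plus 1 on a log axis for the 25 keratins with a mean of at least 20, grouped by role, 1 point per library. In 21 of them the non-targeting library (squares) lies below the other 3 points by at least 2-fold, while in KRT7, KRT10, KRT42P and KRT87P it does not.

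Set against the non-targeting library, 21 of the 25 keratins past the minimum were at least 2-fold higher with POU2F3 gRNA and none was 2-fold lower. Over all 14940 genes past the minimum, 6.73% were at least 2-fold higher and 3.05% lower. With both COLCA2 guides 21 keratins were also at least 2-fold higher and none was lower, where 5.79% of all genes were higher and 2.02% lower. The non-targeting library is shared by these comparisons, so they do not support each other. For the 25 members the median log2 ratio was 2.12 (POU2F3 gRNA) and 3.30 (mean over COLCA2 guides), while for all genes it was -0.0037 and -0.0086. Of the 25, 21 also reached 20 in the non-targeting library itself, and 17 of these were at least 2-fold higher in each comparison. The shares were 4.99% (POU2F3 gRNA) and 4.25% (COLCA2 gRNA) of the 14511 genes chosen the same way. This choice still required a 4-library mean of 20, so the other libraries had a part in it. It left out KRT39 and KRT40, which had 37.2 and 26.7 in the non-targeting library but a mean under 20. POU2F3 gRNA gave them log2 ratios of -3.44 and -4.79. The means over the COLCA2 guides were -2.34 and -3.03.

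The recovered reads were also put through edgeR's quasi-likelihood test, in which the spread between the COLCA2 guides stands for all groups. At an adjusted p of 0.05 it called 18 of the 25 keratins higher with POU2F3 gRNA, where 8.45% of all genes were called higher and 3.98% lower. KRT23, KRT84 and KRT86 passed 2-fold there without passing edgeR. With COLCA2 gRNA edgeR called 22 higher, where 11.4% of all genes were called higher and 7.51% lower. KRT7 and KRT10 were among the 22, and KRT86 was not. Neither edgeR nor DESeq2 called a keratin lower in these comparisons, and at an unadjusted p of 0.05 edgeR also called 0 lower.

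Simple epithelial keratins included the most abundant members. KRT7, a type II keratin of ductal and glandular epithelia, stood at 17396 normalized counts in the non-targeting library, at 25168 and 23842 in the libraries of COLCA2 gRNA 1 and 2, and at 15111 with POU2F3 gRNA. It stayed within 2-fold in every library, with log2 ratios of 0.53 and 0.45 for the COLCA2 guides and -0.20 for POU2F3 gRNA. KRT8 had 2530 in the non-targeting library, 13262 and 14980 with the COLCA2 guides and 10023 with POU2F3 gRNA. Its partner KRT18 had 4820, 14242, 16181 and 11207 in the same order. Both members of the pair were thus lowest in the non-targeting library, by log2 ratios of 2.48 ± 0.12 for KRT8 and 1.66 ± 0.13 for KRT18 with COLCA2 gRNA (SD, n = 2). With POU2F3 gRNA the log2 ratios were 1.99 and 1.22.

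KRT19, the smallest keratin and a chain of ductal and airway cells, had 889 without a targeting guide and a narrow range otherwise, at 2077 and 2344 (COLCA2 guides) and 2390 (POU2F3 gRNA). KRT23, another type I member, had 25.8 against 82.9, 72.9 and 79.7. For both genes the 3 libraries with a targeting guide stood close together above the non-targeting one. KRT20, the sixth keratin of this group and a marker of intestinal and urothelial surface cells, stayed under the minimum with at most 15 reads.

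Basal keratins showed some of the largest ratios. KRT5, the type II chain of the basal layer, had 95.5 normalized counts in the non-targeting library (95% Poisson interval 77.7 to 116), 3558 and 4079 with the COLCA2 guides and 1024 with POU2F3 gRNA. That is 37.3-fold, 42.7-fold and 10.7-fold above the non-targeting level. KRT15, a type I chain of basal progenitors, had 269 in the non-targeting library and 4695, 5658 and 5264 in the others. Its POU2F3 gRNA value lay between those of the COLCA2 guides, so the KRT15 ratios of 4.25 ± 0.19 (COLCA2 gRNA, SD, n = 2) and 4.28 (POU2F3 gRNA) differed by less than the spread of the guides. KRT14, the usual partner of KRT5, had 5 reads with the non-targeting guide, 51 and 73 with the COLCA2 guides and 118 with the POU2F3 guide. KRT14 was lowest in the non-targeting library and highest with POU2F3 gRNA, there 1.15-fold above COLCA2 gRNA 2 (95% counting interval 0.854 to 1.57).

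Of the 5 keratins of injury and hyperproliferation, 4 passed the minimum, and these were at least 2-fold higher in every library with a targeting guide. Over all genes 6.73% were higher with POU2F3 gRNA and 5.79% with both COLCA2 guides. KRT6C, the fifth, had 0 reads with the non-targeting guide, 1 and 12 with the COLCA2 guides and 4 with POU2F3 gRNA. KRT17, a type I chain, had 467 in the non-targeting library, 16567 and 19594 with the COLCA2 guides and 9530 with POU2F3 gRNA. KRT16 had 32.5, 888, 906 and 316. The type II chains KRT6A and KRT6B had 29.6 and 47.7 in the non-targeting library. KRT6A stood at 534 and 646 with the COLCA2 guides and 132 with POU2F3 gRNA, and KRT6B at 643, 643 and 141. In all 4 genes the POU2F3 gRNA value lay between the non-targeting value and both COLCA2 values. Over all genes past the minimum, 38.9% lay below both COLCA2 guides with POU2F3 gRNA. That share takes no account of the non-targeting value, and a share for lying between was not computed.

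Reads of these genes are hard to assign. Of the 31-base words in the longest coding transcript of KRT6B, 58.3% also occur in transcripts of other genes, and 53.1% occur in KRT6C. The share found elsewhere was 52.7% for KRT6A, 39.5% for KRT16, 34.6% for KRT17, 46.1% for KRT14 and 53.3% for KRT18, mostly in KRT18 pseudogenes. For KRT5, KRT15, KRT13 and KRT9 it was 7.20%, 1.75%, 3.37% and 0%. The split of reads between the KRT6 copies is therefore uncertain.

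Upper-layer keratins were mixed. KRT13, a type I chain of mucosal epithelium, had 23.9 in the non-targeting library, 720 and 815 with the COLCA2 guides and 1475 with POU2F3 gRNA, which is 61.8-fold above the non-targeting value (95% counting interval 41.7 to 95.7). KRT9, known from palm and sole skin, had 21.96, 291, 350 and 619. In these 2 genes the POU2F3 gRNA library was the highest of the 4. KRT4, the usual type II partner of KRT13, had no read with the non-targeting guide and at most 19 reads otherwise.

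KRT1, a type II chain of upper epidermis, had 23.9 in the non-targeting library, 295 and 452 with the COLCA2 guides and 191 with POU2F3 gRNA. Its partner KRT10 was already abundant, with 2679, 4439, 4789 and 2957, and stayed within 2-fold in each library. The KRT10 log2 ratio was 0.78 ± 0.077 (SD, n = 2) with COLCA2 gRNA and 0.14 with POU2F3 gRNA. KRT80, a type II keratin found with desmosomes in differentiating cells, had 138, 1359, 1385 and 871. The 9 other keratins of this group stayed under the minimum.

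Keratins named for hair were also read in these cells. KRT75, a type II chain of the hair follicle companion layer, had 16.2 in the non-targeting library, 361 and 442 with the COLCA2 guides and 120 with POU2F3 gRNA. KRT28, a type I chain of the inner root sheath, had 125, 274, 299 and 321. KRT81 had 26.7, 285, 254 and 133, and KRT84 had 26.7, 176, 223 and 57.9. KRT86 had 10, 31, 36 and 32 reads, and shares 47.3% of its 31-base words with other genes, KRT81 above all. For KRT81 this share was 53.2%, with KRT86 above all, and for KRT34 it was 21.8%. No read of KRT34 was found with the non-targeting guide, against 43, 19 and 34 reads in the others. Computed against 3 reads, KRT34 was at least 15.6-fold and 7.80-fold higher with COLCA2 gRNA 1 and 2 and at least 9.96-fold higher with POU2F3 gRNA.

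Among members under the minimum, 3 reached 20 reads in a library. KRT32, a hair keratin, had 2 reads with the non-targeting guide, 15 and 9 with the COLCA2 guides and 41 with POU2F3 gRNA, a ratio of 18.02 for the last (95% counting interval 4.68 to 154). KRT39 and KRT40, neighbouring type I hair keratin genes, ran the other way. KRT39 had 39 reads with the non-targeting guide, 7 and 5 with the COLCA2 guides and 3 with POU2F3 gRNA. KRT40 had 28 reads with the non-targeting guide, 0 and 9 with the first and the other COLCA2 guide and 0 with the POU2F3 guide, which made it at least 10.6-fold lower with POU2F3 gRNA and 8.60-fold lower with COLCA2 gRNA 1. All reads of KRT39 and KRT40 came from a second row annotated as an alternate copy of the gene. Neither KRT39 nor KRT40 enters the counts of members past the minimum. The other 37 members under the minimum had at most 19 reads in any library.

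The pseudogenes KRT42P and KRT87P passed the minimum and had no call against the non-targeting library. KRT42P had 42, 36, 35 and 38 reads in the non-targeting, COLCA2 gRNA 1, COLCA2 gRNA 2 and POU2F3 gRNA libraries. KRT87P had 36, 43, 32 and 20 reads in the same order, a log2 ratio of -0.99 with POU2F3 gRNA, just inside the 2-fold limit.

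**Figure D2:**
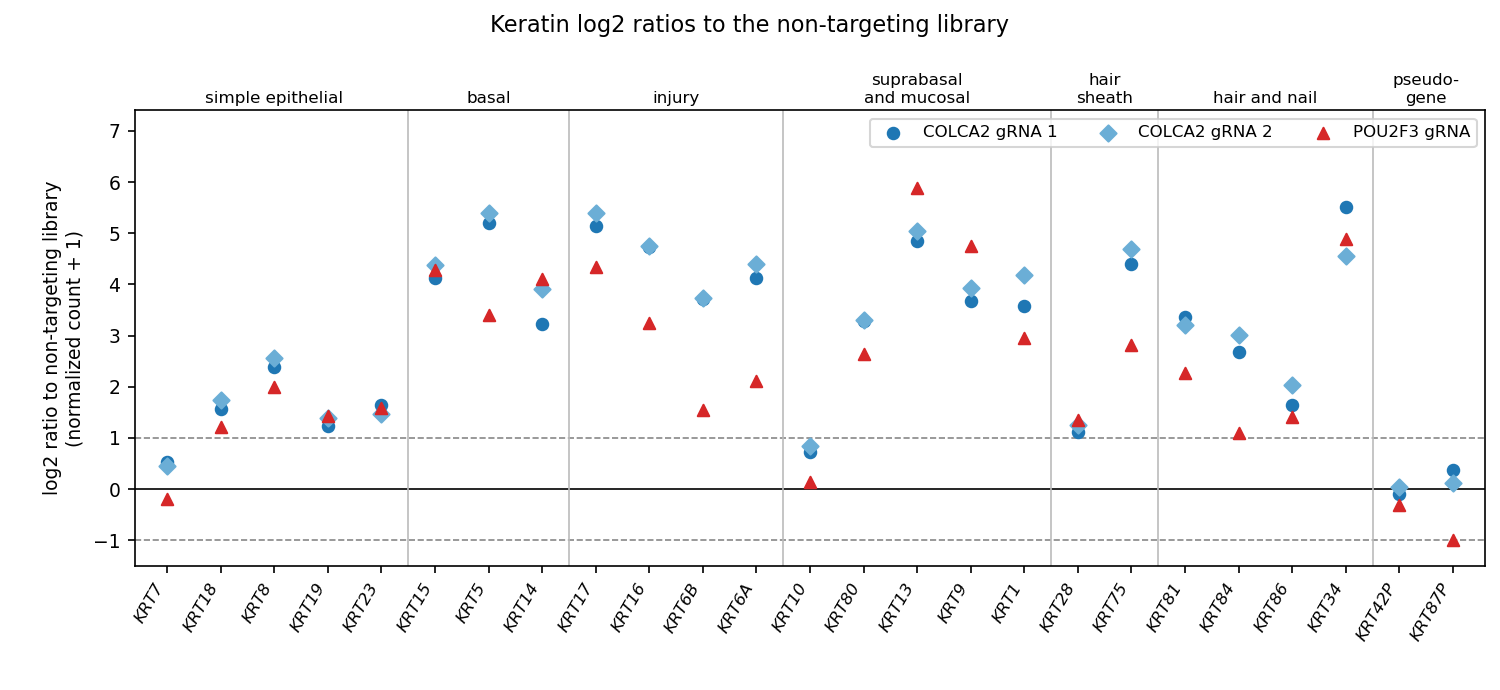
Log2 ratio of each library with a targeting guide to the non-targeting library, on normalized counts plus 1, for the same 25 keratins. Dashed lines mark 2-fold, and the highest point is KRT13 with POU2F3 gRNA at 5.89. The 3 points of KRT34 rest on the pseudocount because its non-targeting count is 0.

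Levels of different keratins were compared per length, as RPKM, the reads divided by the length of the longest annotated transcript and by the library total. The summed level of all keratins was 646 RPKM in the non-targeting library, 1702 and 1851 for the COLCA2 guides, and 1184 for the POU2F3 guide. KRT7 was the most abundant keratin in each library, but it made up 63.2% of the summed level in the non-targeting library against 33.0%, 28.9% and 29.3% in the others. KRT17 went from 1.62% in the non-targeting library, rank 6, to 20.7% and 22.7% with the COLCA2 guides, rank 2 in both. With POU2F3 gRNA KRT17 held 17.6% and rank 3, after KRT18, but rank 2 with the median length of each gene's transcripts. The pair KRT8 and KRT18 together held 20.3% in the non-targeting library, 26.3% and 27.6% with the COLCA2 guides and 30.1% with POU2F3 gRNA. KRT7 is part of the sum behind these shares, so its own share bears on them.

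The balance of the keratin types also differed. Type II keratins summed to 451 RPKM and type I keratins to 193 RPKM in the non-targeting library, a ratio of 2.34. The ratio was 1.004 and 0.884 for the COLCA2 guides and 0.804 for the POU2F3 guide. The non-targeting library thus had the highest ratio of the 4. With median transcript lengths it was again the highest, at 4.45 against 1.43, 1.24 and 1.16. Whether type II stood above type I in the other libraries therefore turned with the length used. KRT7 alone held 408 of the 451 RPKM of type II in the non-targeting library. In the others it held 561 of 852, 535 of 868 and 346 of 527 RPKM. The order rests on this gene, since without KRT7 the non-targeting library would not have the highest ratio. In the COLCA2 gRNA 1 library KRT5 stood at 55.0 RPKM, KRT15 at 35.1 RPKM and KRT14 at 1.24 RPKM. The longest KRT15 transcript has 5237 bp and the median one 959 bp, and with median lengths KRT15 (191 RPKM) stood above KRT5 (182 RPKM), while KRT14 stayed low at 1.96 RPKM. In the non-targeting library KRT18 stood at 95.03 RPKM and KRT8 at 36.4 RPKM, a ratio of 2.61 that became 1.23 with median lengths.

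**Figure D3:**
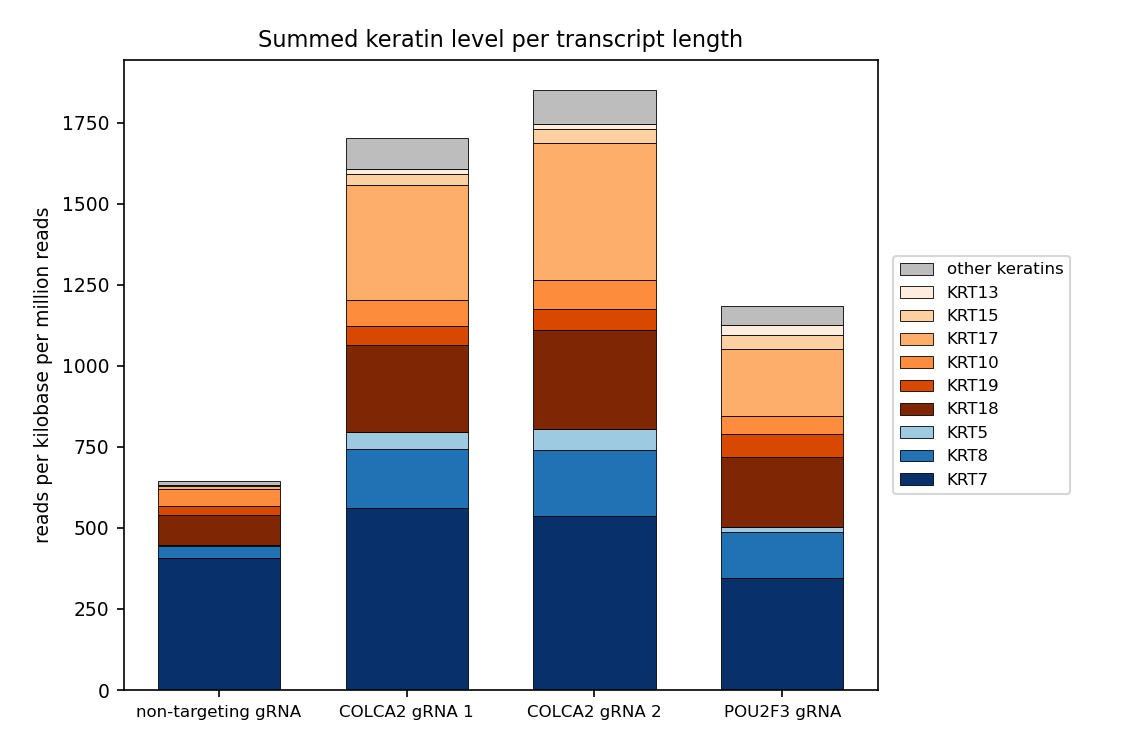
Stacked bars of RPKM (reads per longest transcript length and library total) for 9 keratins and the sum of the rest in each library, type II chains in blue and type I chains in orange to brown. KRT7 fills 63.2% of the non-targeting bar, and the bar heights run from 646 to 1851.

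The POU2F3 gRNA library was then set directly against each COLCA2 gRNA library, which leaves the non-targeting library out. Between the COLCA2 guides the median absolute log2 difference over the 25 keratins was 0.18. None was 2-fold apart, which is near the background of 2.22% of all genes. KRT34, with few reads, had the largest difference at 0.97. Against both guides, 7 of the 25 keratins were at least 2-fold lower with POU2F3 gRNA and none was 2-fold higher, where 0.924% of all genes were lower and 0.442% higher. The 7 were KRT5, KRT6A, KRT6B, KRT16, KRT75, KRT84 and the pseudogene KRT87P. Of these, KRT75, KRT84 and KRT87P were not called by edgeR in this comparison. KRT87P had few reads, 20 with POU2F3 gRNA against 43 and 32 with COLCA2 gRNA 1 and 2.

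KRT6B differed most evenly, with 141 against 643 and 643, a log2 ratio of -2.18 to each guide. KRT6A had log2 ratios of -2.01 and -2.28 to COLCA2 gRNA 1 and 2, KRT5 had -1.80 and -1.99, and KRT16 had -1.49 and -1.52. In each of these genes the difference was larger than the 0.27 or less on the log2 scale that separated the guides. KRT75 had -1.58 and -1.87, and KRT84 had -1.59 and -1.93. KRT13 and KRT9 went the other way. KRT13 had log2 ratios of 1.03 and 0.85 and KRT9 of 1.09 and 0.82 to COLCA2 gRNA 1 and 2. Both therefore passed 2-fold against gRNA 1 only, so that leaving out gRNA 2 would give 2 higher keratins in place of 0.

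Split by type, all 11 type II coding keratins past the minimum were lower with POU2F3 gRNA than with both COLCA2 guides. Of the 12 type I keratins, 4 were below both guides (KRT10, KRT16, KRT17 and KRT18), 5 were above both (KRT9, KRT13, KRT14, KRT19 and KRT28) and 3 lay between. Over all genes 38.9% were below both guides and 35.6% above both. The median log2 ratio was -1.02 for type II and 0.033 for type I keratins. By edgeR at an adjusted p of 0.05, POU2F3 gRNA had 1 keratin above the COLCA2 guides (KRT13) and 6 below them, where 0.107% and 0.234% of all genes were. Since 1 library stands for POU2F3 gRNA, whether another culture or guide would give the same split is not known.

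**Figure D4:**
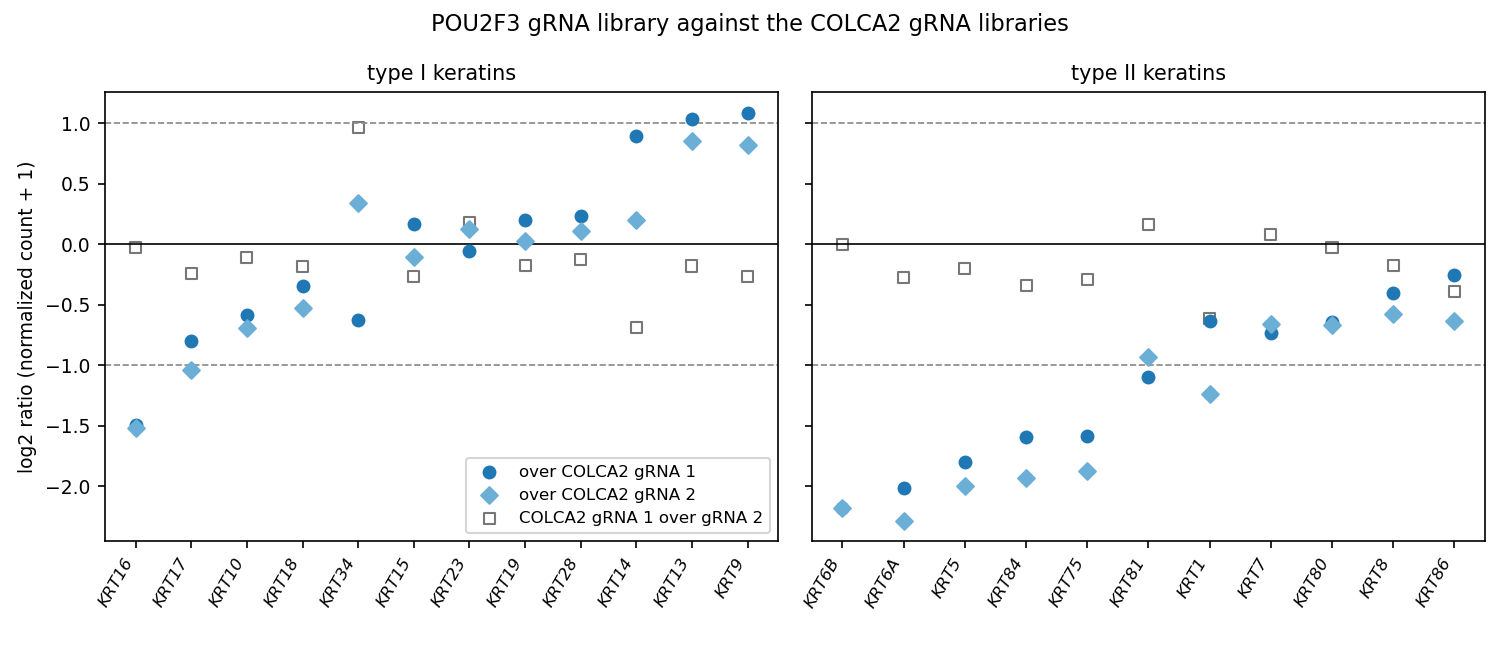
Log2 ratio of the POU2F3 gRNA library to each COLCA2 gRNA library for type I (left) and type II (right) keratins past the minimum, with open squares for the ratio between the COLCA2 guides and dashed lines at 2-fold. All filled points of the 11 type II keratins are below 0, and those of type I keratins run from -1.52 to 1.09.

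Promoter sequences are shown for KRT5, KRT75 and KRT84, which were at least 2-fold lower with POU2F3 gRNA than with both COLCA2 guides, and for KRT9, which was higher. They are the 250 bases before the RefSeq start of the gene (GRCh38.p14), each read 5′ to 3′ on the minus strand that carries the gene. GENCODE release 29 places the starts of KRT5 and KRT75 farther upstream, so the KRT5 window lies wholly and the KRT75 window partly inside the GENCODE gene. KRT5 is at chr12:52520395-52520644, KRT75 at chr12:52434372-52434621, KRT84 at chr12:52385653-52385902 and KRT9 at chr17:41572060-41572309. Capitals mark matches to the 6 motifs searched on both strands.
KRT5: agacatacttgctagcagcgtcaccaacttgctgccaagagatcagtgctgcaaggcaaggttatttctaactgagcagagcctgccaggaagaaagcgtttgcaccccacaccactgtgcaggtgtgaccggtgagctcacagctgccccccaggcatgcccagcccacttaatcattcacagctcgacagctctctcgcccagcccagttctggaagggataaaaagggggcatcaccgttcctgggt
KRT75: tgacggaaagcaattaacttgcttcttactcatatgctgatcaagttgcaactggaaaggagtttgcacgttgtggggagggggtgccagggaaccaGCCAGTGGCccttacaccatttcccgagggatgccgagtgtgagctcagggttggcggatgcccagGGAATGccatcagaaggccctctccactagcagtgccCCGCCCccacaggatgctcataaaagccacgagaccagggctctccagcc
KRT84: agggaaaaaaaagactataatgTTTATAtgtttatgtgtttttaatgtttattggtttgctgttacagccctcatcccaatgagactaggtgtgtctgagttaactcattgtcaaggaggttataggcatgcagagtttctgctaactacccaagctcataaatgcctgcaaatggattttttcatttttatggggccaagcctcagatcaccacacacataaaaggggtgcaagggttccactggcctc
KRT9: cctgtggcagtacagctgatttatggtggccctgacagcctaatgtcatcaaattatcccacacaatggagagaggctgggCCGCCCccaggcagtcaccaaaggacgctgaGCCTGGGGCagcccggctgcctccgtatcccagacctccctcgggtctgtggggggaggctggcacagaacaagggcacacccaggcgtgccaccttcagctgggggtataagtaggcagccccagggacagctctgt

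The motifs were a TATA box (TATAAA), AP-1 (TGANTCA), the octamer bound by POU2F proteins (ATGCAAAT), AP-2 (GCCNNNGGC), TEAD (GGAATG) and a GC box (GGGCGG), with N for any base. KRT75 held an AP-2, a TEAD and a GC box match, and KRT9 an AP-2 and a GC box match. KRT84 held a TATA box match at bases -228 to -223 from the start. The GC box matches and the TATA box match were on the opposite strand, and no matches overlapped. KRT5 held none of the 6. RefSeq promoters were found for 34 of the 65 members, 8 of them past the expression minimum. A TATA box match was present in 21 of the 34, beside 10.7% of all 35116 promoters. AP-2 matches were present in 5 of 34 (19.8% of all promoters), TEAD in 5 (11.9%) and the GC box in 4 (42.6%). The octamer and AP-1 letters were in none of the 34 windows, beside 1.63% and 6.57% of all promoters. These are letter matches in a short window and do not measure binding.

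Keratin genes lie in clusters, which places the changes along the chromosome. The chromosome 12 cluster held 34 members from 52168996 to 52952901 in GRCh38, all 26 type II coding genes and the type I gene KRT18. The chromosome 17 cluster held the other 31 members from 40654665 to 41640199. On chromosome 12, KRT5 (ENSG00000186081) from 52514575 to 52520687 and KRT6B (ENSG00000185479) from 52446651 to 52452126 lie on the minus strand. On chromosome 17, KRT13 (ENSG00000171401) from 41500981 to 41505705 and KRT17 (ENSG00000128422) from 41619441 to 41624842 also lie on the minus strand. On chromosome 17 the 7 adjacent genes KRT13, KRT15, KRT19, KRT9, KRT14, KRT16 and KRT17 were all at least 2-fold higher in each comparison with the non-targeting library. On chromosome 12 the neighbours KRT75, KRT6B, KRT6A and KRT5 were all higher, with KRT6C among them under the minimum. Over all genes 6.73% (POU2F3 gRNA) and 5.79% (COLCA2 gRNA) were higher. KRT14 and KRT75 entered through the libraries with a targeting guide. Neighbours also share sequence: 46.1%, 39.5% and 34.6% of the 31-base words of KRT14, KRT16 and KRT17 occur in other genes. The KRT6 copies share more, so neighbours are not fully separate observations. In gene order KRT7 and KRT87P, with no 2-fold call against the non-targeting library, stand next to KRT86 or KRT81, which had one. The annotated extents of KRT8 and KRT18 overlap by 1084 bp on opposite strands, and KRT81 lies within KRT86 on the other strand over 5622 bp. KRT7 and KRT86 overlap by 2887 bp on the same strand. KRT87P, on the opposite strand, lies within KRT86 over 8402 bp and overlaps KRT7 by 1721 bp. Use of the strand in counting is not given in the sources used here.

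**Figure D5:**
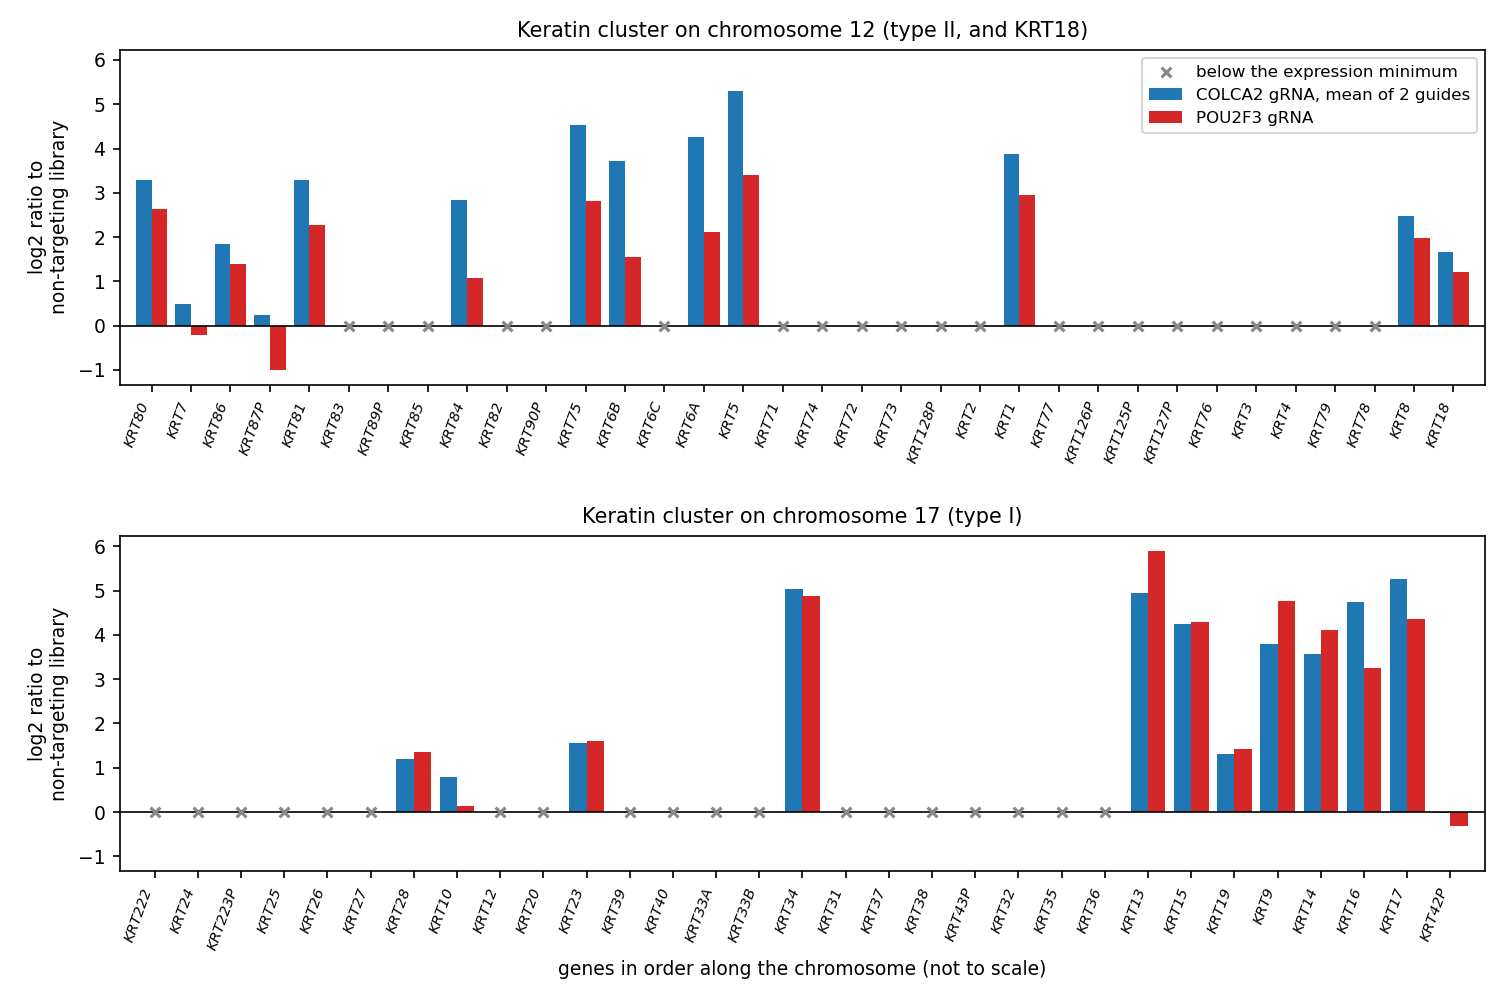
Log2 ratio to the non-targeting library for members in their order along chromosomes 12 and 17, with blue bars for the mean of the COLCA2 guides, red bars for POU2F3 gRNA and crosses for members below the minimum. The run from KRT13 to KRT17 on chromosome 17 has only positive bars, and the KRT34 bars rest on the pseudocount.

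Genes that work with keratins were examined as lists. Of 16 genes for plakins and desmosome parts that tie keratin filaments to junctions, 13 passed the minimum. None of the 13 was 2-fold apart with POU2F3 gRNA, and their median log2 ratio was 0.17. With both COLCA2 guides 2 were higher and none lower, with a median of 0.13. The 2 were EPPK1, a plakin that binds keratins, and DSG3, a desmosomal cadherin of basal cells, named after their values were seen. Among all genes 6.73% were higher and 3.05% lower (POU2F3 gRNA) and 5.79% and 2.02% (COLCA2 gRNA), so these counts lie near the background. DSP, the main plakin of desmosomes, had 12955 in the non-targeting library, 10623 and 11010 with the COLCA2 guides and 11553 with POU2F3 gRNA.

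Of 13 other intermediate filament genes 9 passed the minimum. LMNA, the gene of lamins A and C, had 1286 in the non-targeting library, 4425 and 4556 with the COLCA2 guides and 4253 with POU2F3 gRNA, at least 2-fold higher in each. VIM, the filament of mesenchymal cells, was already at 29301 without a targeting guide and passed 2-fold only with POU2F3 gRNA, at 80266, against 45314 and 42972 with the COLCA2 guides. Since VIM was chosen after its values were seen, this difference is a description. Median log2 ratios of the list were -0.31 with POU2F3 gRNA and -0.28 with COLCA2 gRNA.

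Of 18 genes of the cornified envelope, the hardened layer of squamous cells, 17 were in the tables and 6 passed the minimum. PI3, a protease inhibitor cross-linked into the envelope, had 4.77 in the non-targeting library, 224 and 294 with the COLCA2 guides and 97.4 with POU2F3 gRNA. TGM3, a cross-linking transglutaminase, had 1 read with the non-targeting guide, 54 and 81 with the COLCA2 guides and 6 with POU2F3 gRNA. SPRR2A was at least 2-fold lower in each, with 106 against 42.5, 22.3 and 25.2. The counts were 2 higher and 1 lower with POU2F3 gRNA and 3 higher and 1 lower with COLCA2 gRNA, beside 6.73% and 3.05%, and 5.79% and 2.02%, of all genes. The higher genes PI3, TGM3 and TGM1 had 4.77, 0.955 and 13.4 in the non-targeting library. They passed the minimum only through libraries with a targeting guide, so their higher calls follow in part from that entry. IVL, the classical envelope protein, stayed under the minimum with at most 24.7.

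All 18 transcription factors of stratified and glandular epithelium passed the minimum. With POU2F3 gRNA 8 were at least 2-fold higher and 1 lower, and with both COLCA2 guides 7 were higher and none lower, beside 6.73% and 3.05%, and 5.79% and 2.02%, of all genes. Their median log2 ratios were 0.42 and 0.31. ZNF750, counted as higher in both, had 10.5 in the non-targeting library and passed the minimum through the others. GRHL3, an epidermal differentiation factor, had 62.1 in the non-targeting library, 471 and 519 with the COLCA2 guides and 461 with POU2F3 gRNA. ELF3 had 424, 2702, 2978 and 1907, and TP63, the regulator of basal cells, had 38.2, 188, 265 and 159. KLF5 and CEBPB were also at least 2-fold higher in each, with log2 ratios to the non-targeting library between 1.90 and 2.04. These 5 were named for that shared direction. Other members of the list were highest in the non-targeting library, among them OVOL2 with 596 against 274 to 355, GRHL2 with 1539 against 881 to 1082 and EHF with 13730 against 8765 to 9497, named after their values were seen. SOX2, named after its values were seen, was 2-fold higher with POU2F3 gRNA than with both COLCA2 guides, at 378 against 156 and 151.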

How the data were processed

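NCI-H1048 cells gave 4 sequenced libraries, made from TRIzol-extracted, DNase-treated and poly(A)-selected RNA with a NEBNext Ultra II kit, per the labels' protocols. The deposited values are a linear signal that the file headers call normalized counts. The submitters' processing notes name Salmon, DESeq2 and hg38 without roles or versions, and the annotation and use of strand are not given in the sources used here. Within a tolerance of 0.001, 100% of each library's values came out as whole numbers of 1 step, so reads were recovered by dividing by the step, which gave between 21587741 and 29632382 reads per library. Whether estimated counts were rounded first is not known.

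Rows of 1 symbol were summed, and 10 members had 2 rows. Log2 ratios used a pseudocount of 1, which understates changes of low genes, and members were called at 2-fold among genes with a mean of at least 20, without a test. For COLCA2 gRNA both guides had to pass. Folds are ratios of normalized counts without the pseudocount, with exact counting intervals, and a gene at 0 is given a bound against 3 reads. Lengths and positions come from GENCODE 29. Keratins past the minimum, and those with 20 reads in a library, were named with their values. Partner genes named are at most 5 per list, at least 2-fold apart in the same direction in all 3 ratios, unless stated. The members and lists were chosen with earlier results of these data known.

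Alternatives were edgeR 4.0.16 (quasi-likelihood test) and DESeq2 1.42.0 on the recovered reads of 3 groups with Benjamini-Hochberg adjustment, other scalings, pseudocounts, minimums and lengths, each guide left out, and values per row. Only the COLCA2 pair supplies a residual degree of freedom (1), so these p-values borrow its spread for the other groups and compare libraries, not conditions. Nothing in the labels says the libraries came from separate cultures. Scripts were tested on simulated data in which changed genes had the same change in every library with a targeting guide. The direct comparison was thus not tested in this way, and the outcome is not given here.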

Additional observations from a re-analysis of the deposited data

Results flagged for a closer look

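Keratins whose response to POU2F3 gRNA differed from that to COLCA2 gRNA were picked out with edgeR's quasi-likelihood test of the difference itself, over all 14940 genes and at an adjusted p of 0.05. The test takes its spread from the COLCA2 guides with 1 residual degree of freedom, so it compares these libraries. There were 7 such keratins. The edgeR log2 fold change of the POU2F3 gRNA library over the COLCA2 gRNA group was -2.18 for KRT6B (adjusted p = 0.0136), -2.15 for KRT6A (adjusted p = 0.0205) and -1.89 for KRT5 (adjusted p = 0.0136). It was -1.5 for KRT16 (edgeR adjusted p = 0.0205), -0.91 for KRT17 (adjusted p = 0.0375) and -0.69 for KRT7 (adjusted p = 0.0373). Each of these 6 was lower with POU2F3 gRNA than with 2 of 2 COLCA2 guides. KRT13 was the exception in direction, with 0.95 by edgeR (adjusted p = 0.0461), and was higher than with 2 of 2 guides. KRT7 also lay on opposite sides of the non-targeting library, below it with POU2F3 gRNA (log2 ratio -0.20) and above it with both COLCA2 guides (0.53 and 0.45). Each of these ratios was within 2-fold, and edgeR did not call the POU2F3 gRNA one. Over all genes edgeR called 0.107% higher and 0.234% lower in this contrast.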

How the results depend on the processing

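No paired analysis was possible because no pair of groups has 2 replicate numbers in common. Of the 75 keratin log2 ratios (25 members in 3 comparisons), none past 2-fold changed sign in 700 recomputed values, of which 66 moved by more than the SD of the COLCA2 guides. KRT34, at 0 in the non-targeting library, depended most on the pseudocount. The all-gene median under another scaling lay farthest from 0 at -0.077 (equal totals, COLCA2 gRNA).

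Without a minimum, 32 keratins were higher and 4 lower with POU2F3 gRNA, 33 higher and 2 lower with COLCA2 gRNA, and 4 higher and 14 lower with POU2F3 than with COLCA2 gRNA. Some of these calls rest on few reads, such as KRT36 with 4 reads (POU2F3 gRNA) against 0. Shares of all genes at other minimums, fold thresholds, pseudocounts and scalings are not given, here or for the partner lists below. Those counts thus have no background. At 4-fold, 13 were higher with POU2F3 gRNA and 2 lower than with COLCA2 gRNA. A pseudocount of 0.1, and scaling to equal totals, each gave 1 keratin lower with POU2F3 gRNA. In the direct comparison edgeR and DESeq2 each called 1 keratin higher, and the count ranged from 0 to 2 with a guide left out. Leaving out the pseudogenes, chosen after seeing the data, changed no count by over 1.5 times.

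For the partner lists together, 12 genes were higher and 2 lower (POU2F3 gRNA), 13 and 1 (COLCA2 gRNA), and 1 and 4 (direct comparison). The lists held 13, 9, 6 and 18 genes past the minimum. Among all genes past it, 6.73% were higher and 3.05% lower (POU2F3 gRNA), 5.79% and 2.02% (COLCA2 gRNA), and 0.442% and 0.924% (direct comparison). All-gene shares by edgeR stand with the keratin calls above, and none is given for DESeq2 or with a guide left out. Without a minimum the list counts were 19 and 4, 21 and 2, and 2 and 8. At 4-fold they were 4 and 1, 6 and 0, and 0 and 1. With a mean of at least 100 the lower counts were 1, 0 and 1, a pseudocount of 10 gave 1 lower with POU2F3 gRNA, and equal totals gave 2 lower with COLCA2 gRNA. edgeR called 5, 7 and 0 lower, and DESeq2 5 lower with COLCA2 gRNA and 2 in the direct comparison. With a guide left out the lower count with COLCA2 gRNA was 1 to 3.

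The share of KRT8 plus KRT18, for the non-targeting, COLCA2 gRNA 1, COLCA2 gRNA 2 and POU2F3 gRNA libraries, was 14.2%, 21.3%, 22.5% and 24.7% with median transcript lengths. It was 24.6%, 30.5%, 31.7% and 34.1% without lengths, and 25.4%, 31.7%, 33.1% and 35.9% with APPRIS principal transcripts, an alternative chosen after seeing the data. The share of type II chains was 69.9%, 50.1%, 46.9% and 44.5% as reported and 81.5%, 58.9%, 55.4% and 53.7% with median lengths. It was 68.1% without lengths and 67.1% with principal transcripts in the non-targeting library, and 43.3% with principal transcripts in the POU2F3 gRNA library. The non-targeting library kept the highest type II share and the lowest KRT8 plus KRT18 share under each of these lengths. Both orders rest on KRT7, which is part of the sum. In that library KRT7 held 63.2% of the summed level as reported, 74.5% with median lengths and 59.0% with principal transcripts.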

Other observations

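The 136 numbered keratin pseudogenes outside the family rule had 274 reads in all with the non-targeting guide, 246 and 233 in the libraries of the COLCA2 guides, and 337 in that of POU2F3 gRNA. The 65 keratin symbols had 31273, 87064, 83628 and 74213 reads in the same order.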
